A study of Mus with 6 samples.

Results

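The genes described here are 8 genes of fatty acid synthesis and desaturation, taken by Ensembl ID from a table of 35304 gene IDs: Srebf1, Acly, Acss2, Acaca, Fasn, Elovl6, Scd1 and Scd2. All 8 were found in the table, and all 8 passed the filter on low counts that left 24935 IDs for testing. The list follows function, and it was drawn up with earlier results of these data known. The counts come from RNA-seq of the mouse mammary carcinoma line 4T1, in 2 groups of 3 libraries each. One group was left untreated, and the other received IPA (isopimaric acid, a diterpene acid of plants that the series title calls an ion channel regulator) at 10 µg/mL for 24 h. All cells grew in medium with fetal bovine serum. A vehicle for the untreated cells is not named in the labels, and whether the replicates were separate cultures is not stated. P-values therefore reflect the spread among these libraries alone, which may be technical.

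Cells build fatty acids in the cytosol from acetyl-CoA. Acetyl-CoA carboxylase turns it into malonyl-CoA, fatty acid synthase assembles palmitate, an elongase lengthens it to stearate, and stearoyl-CoA desaturases introduce the double bond that gives oleate and palmitoleate. The transcription factor SREBP-1, the product of Srebf1, is held at the endoplasmic reticulum until it is cleaved and then switches on most of the enzymes of the route. Many tumors, mammary carcinomas among them, keep this route active although the same lipids are present in serum.

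On GRCm38, with coordinates from RefSeq by symbol, 4 of the 8 genes lie on chromosome 11: Srebf1 (ENSMUSG00000020538) at chr11:60199084-60224186, Acaca (ENSMUSG00000020532) at chr11:84129635-84401651, Acly (ENSMUSG00000020917) at chr11:100476352-100528000 and Fasn (ENSMUSG00000025153) at chr11:120805958-120825166. Scd2 (ENSMUSG00000025203) at chr19:44293676-44306864 and Scd1 (ENSMUSG00000037071) at chr19:44394450-44407709 are neighbours on chromosome 19, with 87586 bp between them. Elovl6 (ENSMUSG00000041220) lies at chr3:129532386-129638495 and Acss2 (ENSMUSG00000027605) at chr2:155518043-155562743. Each of these intervals spans a whole gene with its exons and introns. The annotated spans of Fasn and Scd1 overlap no other gene. Acss2 shares 9891 bp with the noncoding RNA Acss2os, and Acaca shares 19116 bp with Gm11437 and 429 bp with the pseudogene Gm31074. Use of strand in counting is not given in the labels, so reads from these shared stretches could belong to either gene. Whether exons overlap there was not examined. Scd1 and Scd2 are close paralogs, so reads from shared sequence could have been counted for either. No other ID in the table had counts within 2% of any of the 8 genes in all 6 libraries.

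Library totals ran from 3410411 counts in IPA replicate 1 to 58924711 counts in untreated replicate 2. Across all tested IDs, untreated replicate 2 correlated at 0.779 to 0.811 with the other libraries in log2 CPM, against 0.922 or more among the other 5. Fold changes, ratios and counts of genes whose groups do not overlap are given with and without it. That comparison was planned with earlier results of these data known, in which this library already stood apart. Whether the libraries express the markers of an epithelial carcinoma line was not checked here, because the files pair no other ID with a gene name. CPM values are counts scaled to the library total unless TMM (a scaling that balances the bulk of genes between libraries) is named. The smallest count of any of the 8 genes was 117, for Elovl6 in IPA replicate 1, so none was near the limit of detection. That count corresponds to 34.3 CPM with an exact 95% binomial interval of 28.4 to 41.1 CPM, which covers counting error only.

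Over all 6 libraries none of the 8 genes passed the test (adjusted p under 0.05, edgeR's quasi-likelihood test with Benjamini-Hochberg adjustment over all IDs). Elovl6 passed it once untreated replicate 2 was left out. In that comparison Elovl6 mRNA was 1.80 times lower with IPA. Fasn was 1.30 times higher there but did not pass the test, and the other 6 genes lay between 0.858 and 1.12 times their untreated level. The biological coefficient of variation (the spread between replicates beyond counting error) was 0.57 over all 6 libraries and 0.178 without untreated replicate 2, so the first comparison had less power to call changes of this size. The size of the change also differed, since Elovl6 was 1.62 times lower over all 6 libraries. Its SE on the log2 scale was 0.23 over all 6 libraries and 0.16 without untreated replicate 2.

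In numbers, edgeR called 0 of the 8 genes over all 6 libraries, where it called 0% of all IDs in either direction. At an unadjusted p under 0.05 there was 1 of the 8, Elovl6, against 6.26% of all IDs. DESeq2 and limma-voom on the same 6 libraries also called 0 of the 8, where they called 0.46% and 0% of all IDs. Without untreated replicate 2, edgeR called 1 of the 8 lower and 0 higher, where it called 2.2% of all IDs lower and 1.26% higher. The 2 genes with an unadjusted p under 0.05 there were Elovl6 and Fasn, against 16.8% of all IDs. Limma-voom with sample quality weights, which kept all 6 libraries but gave untreated replicate 2 a weight of 0.0388, called Elovl6 alone of the 8, where it called 3.38% of all IDs lower. The median log2 fold change of the 8 genes was 0.15 over all 6 libraries, beside -0.08 over all tested IDs, and 0.08 without untreated replicate 2, beside -0.04.

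**Figure D1:**
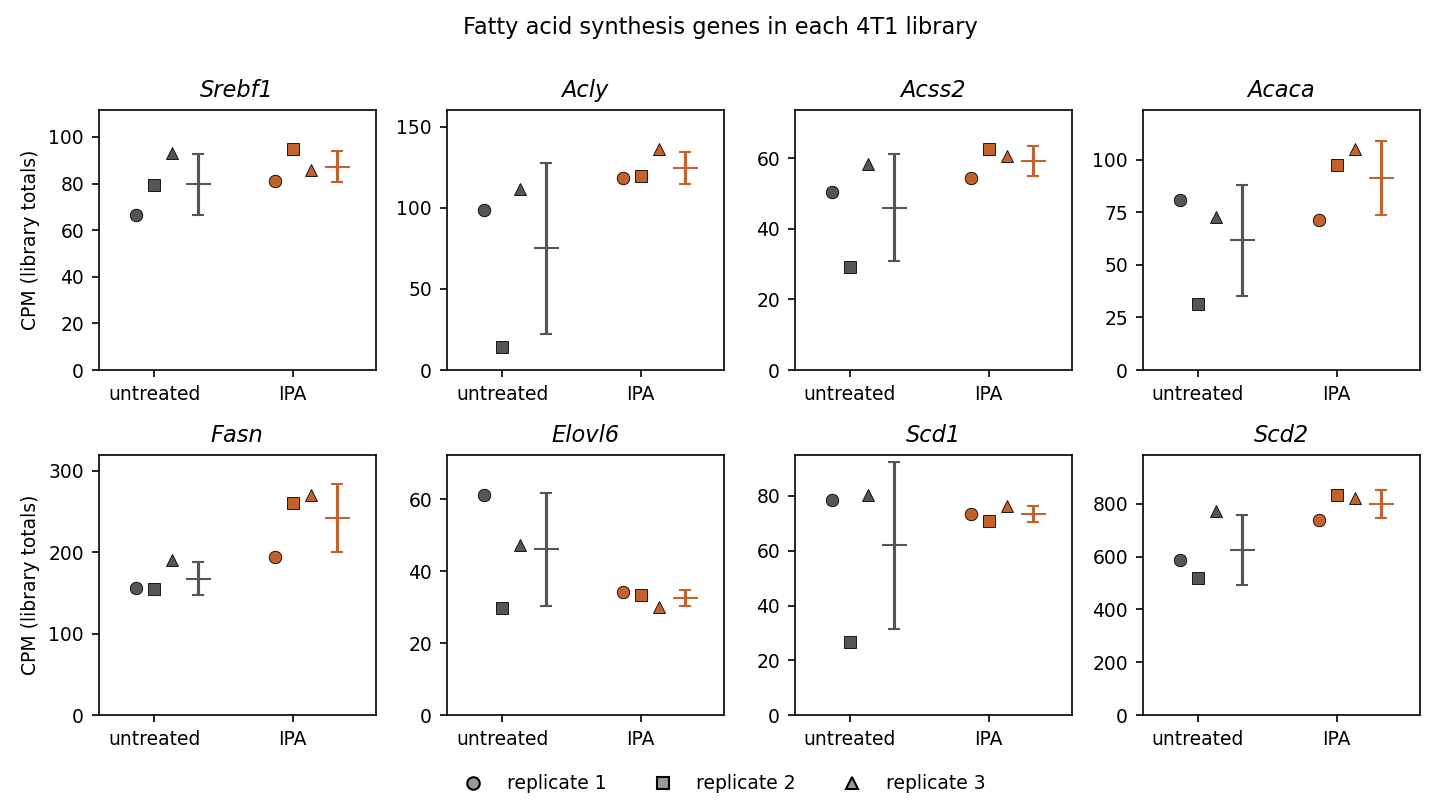
CPM by library totals of the 8 genes (vertical axes, each from 0) in untreated and IPA libraries; each symbol is 1 library, and the bar beside each group is its mean with the SD (n = 3). Untreated replicate 2, the grey square, is the lowest of the 6 libraries for every gene but Srebf1, with Acly at 14.3 CPM, and the IPA libraries of Elovl6 lie close together at 30.1 to 34.3 CPM.

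Elovl6 encodes the elongase that extends palmitate to stearate. Its level was 61.3, 29.9 and 47.1 CPM in untreated replicates 1, 2 and 3, and 34.3, 33.4 and 30.1 CPM in IPA replicates 1, 2 and 3. The IPA libraries were tightly grouped, at 32.6 ± 2.21 CPM (SD, n = 3), while the untreated ones were spread, at 46.1 ± 15.7 CPM (SD, n = 3). This contrast was not particular to Elovl6. The SD was larger in the untreated group for every gene of the 8 but Fasn (20.1 CPM untreated, 41.9 CPM with IPA). Untreated replicate 2 fell below all 3 IPA libraries on this scale, and the other untreated libraries lay above them. The counting interval of untreated replicate 2 (28.5 to 31.3 CPM) overlapped those of IPA replicate 1 (28.4 to 41.1 CPM) and IPA replicate 3 (28.4 to 31.8 CPM). By library totals 0 of the 8 genes had IPA lower without overlap, where 6.38% of all IDs did. After TMM scaling, untreated replicate 2 stood at 39.8 CPM, and the untreated libraries (39.8 to 60.2 CPM) no longer overlapped the IPA libraries (28.5 to 30.9 CPM). Elovl6 was the 1 gene of the 8 with IPA lower and no overlap on that scale, as were 10.8% of all IDs. Without untreated replicate 2, Elovl6 and Scd1 were the 2 of the 8 with IPA lower and no overlap, on both scales, where 13.9% of all IDs were so by library totals and 19.4% by TMM.

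Over all 6 libraries the log2 fold change of Elovl6 was -0.70 ± 0.23 (SE; edgeR adjusted p = 0.657). Without untreated replicate 2 it fell by 0.85 ± 0.16 on the log2 scale (SE; edgeR adjusted p = 0.00531), with a 95% interval of 0.442 to 0.699 times the untreated level. That call compares 2 untreated with 3 IPA libraries and leans on untreated replicate 1, in which Elovl6 was highest. With untreated replicate 1 left out as well, untreated replicate 3 alone stood against the 3 IPA libraries, and the log2 fold change was -0.63 (edgeR adjusted p = 0.0868). With untreated replicate 3 left out instead, untreated replicate 1 alone stood against the 3 IPA libraries, and the log2 fold change was -1.04. With any one IPA library left out in addition to untreated replicate 2, the adjusted p of edgeR ran from 0.00784 to 0.0325.

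Srebf1 encodes SREBP-1. Its level was 66.4, 79.6 and 92.9 CPM in the untreated libraries, in the order of their replicate numbers, and 81.2, 94.7 and 86.0 CPM in the IPA libraries. The groups overlapped, and untreated replicate 2 lay between the other untreated libraries. The log2 fold change was -0.11 ± 0.23 over all 6 libraries and 0.03 ± 0.15 without untreated replicate 2 (SE; edgeR adjusted p = 0.871 and 0.958). The 95% interval of the second comparison ran from 0.824 to 1.27 times the untreated level. The sign also differed by scaling, since library totals in place of TMM gave 0.13 over all 6 libraries. Cleavage of the SREBP-1 protein is not measured by mRNA counts.

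Acetyl-CoA in the cytosol comes from citrate through ATP citrate lyase (Acly) and from acetate through acetyl-CoA synthetase (Acss2). Acly stood at 98.8, 14.3 and 112 CPM in untreated replicates 1, 2 and 3, and at 118, 119 and 136 CPM in the IPA libraries. All 3 IPA libraries were above all untreated ones on this scale, although the counting intervals of IPA replicate 1 (107 to 131 CPM) and untreated replicate 3 (109 to 114 CPM) overlapped. By TMM the IPA libraries were at 107 to 129 CPM and overlapped untreated replicate 3, at 109 CPM. The value of 14.3 CPM in untreated replicate 2 was 7.35 times below the mean of the other untreated libraries, and it rests on 844 counts. Accordingly the log2 fold change of Acly was 0.62 ± 0.57 over all 6 libraries and 0.14 ± 0.13 without that library (SE; edgeR adjusted p = 0.726 and 0.682).

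Acss2 was at 50.5, 29.1 and 58.4 CPM in the untreated libraries and at 54.5, 62.5 and 60.7 CPM in the IPA libraries. Untreated replicate 2 was again the lowest, and untreated replicate 3 lay among the IPA libraries. The log2 fold change was 0.18 ± 0.22 over all 6 libraries and 0.02 ± 0.14 without untreated replicate 2 (SE; edgeR adjusted p = 0.793 and 0.967). In the second comparison the 95% interval ran from 0.829 to 1.25 times the untreated level.

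Acaca encodes acetyl-CoA carboxylase 1, the committed step, and Fasn the multidomain synthase that follows it. Acaca was at 80.8, 31.5 and 72.9 CPM in the untreated libraries and at 71.3, 97.5 and 105 CPM in the IPA libraries. IPA replicate 1 lay below untreated replicates 1 and 3, and the other IPA libraries lay above them. The log2 fold change was 0.40 ± 0.30 over all 6 libraries and 0.16 ± 0.16 without untreated replicate 2 (SE; edgeR adjusted p = 0.683 and 0.69).

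Fasn was at 156, 155 and 190 CPM in the untreated libraries and at 194, 261 and 271 CPM in the IPA libraries. On this scale the groups did not overlap, although IPA replicate 1 and untreated replicate 3 differed by less than their counting intervals, at 179 to 209 and 187 to 194 CPM. Fasn and Acly were the 2 of the 8 genes with IPA higher and no overlap by library totals, where 15.7% of all IDs were so. By TMM it was 0 of the 8, where 9.49% of all IDs were so, and Fasn in IPA replicate 1 (174 CPM) fell among the untreated libraries (154 to 206 CPM). With untreated replicate 2 left out the counts were again 2 of the 8 by library totals, where 19.8% of all IDs were so, and 0 of the 8 by TMM, where 13.3% were so.

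The log2 fold change of Fasn was 0.30 ± 0.24 over all 6 libraries and 0.38 ± 0.15 without untreated replicate 2 (SE; edgeR adjusted p = 0.691 and 0.194). The second value corresponds to 1.30 times the untreated level, with a 95% interval of 1.04 to 1.63. With IPA replicate 1, the shallowest library, left out as well, Fasn was 1.47 times higher (edgeR adjusted p = 0.0357), and edgeR then called 2.88% of all IDs higher and 3.05% lower. Elovl6 was the 1 gene of the 8 called lower there.

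**Figure D2:**
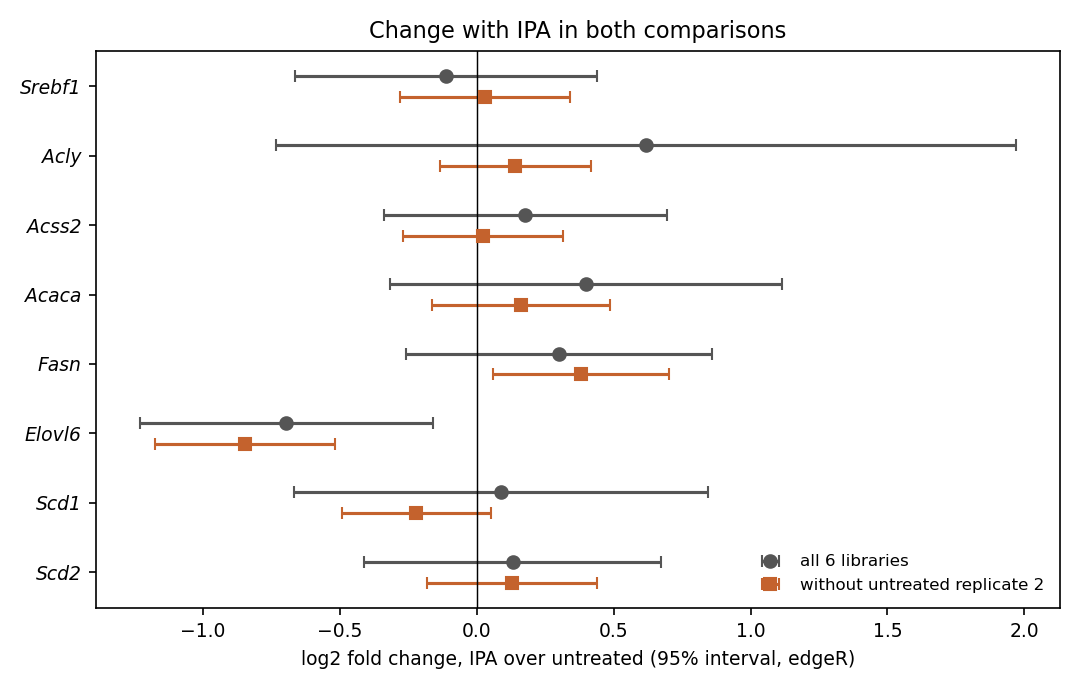
Log2 fold change of each gene, IPA over untreated (horizontal axis), with its 95% interval from edgeR, over all 6 libraries (circles) and without untreated replicate 2 (squares). Elovl6 lies below 0 in both, at -0.70 and -0.85, the interval of Fasn excludes 0 in the second comparison without passing the adjusted test, and the interval of Acly narrows most when that library is left out.

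Scd1 and Scd2 encode stearoyl-CoA desaturases, which make monounsaturated fatty acids from stearate and palmitate. Scd1 was at 78.5, 26.8 and 80.5 CPM in untreated replicates 1, 2 and 3, and at 73.3, 70.7 and 76.2 CPM in the IPA libraries. The 3 IPA libraries lay between untreated replicate 2 below them and untreated replicates 1 and 3 above them. The log2 fold change was 0.09 ± 0.32 over all 6 libraries and -0.22 ± 0.13 without untreated replicate 2 (SE; edgeR adjusted p = 0.929 and 0.434), so its sign changed when that library was left out.

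Scd2 was at 586, 518 and 774 CPM in the untreated libraries and at 738, 835 and 824 CPM in the IPA libraries. Untreated replicate 3 lay above IPA replicate 1, so the groups overlapped. The log2 fold change was 0.13 ± 0.23 over all 6 libraries and 0.13 ± 0.15 without untreated replicate 2 (SE; edgeR adjusted p = 0.85 and 0.761). Without untreated replicate 2, the interval of Scd2 ran from 0.881 to 1.36 times the untreated level and that of Scd1 from 0.71 to 1.04. These intervals overlap.

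The low values of untreated replicate 2 did not affect the 8 genes evenly. By library totals it was the lowest of the 6 libraries for 7 of the 8 genes, where it was lowest for 49.6% of all IDs. By TMM, which gave it a factor of 0.754, it was lowest for 4 of the 8, where it was lowest for 38.9% of all IDs. The library departed upward as well. It was the highest of the 6 for 26.9% of all IDs and 0 of the 8 genes by library totals. By TMM it was the highest for 37.7% of all IDs and 1 of the 8 genes. The mean of untreated replicates 1 and 3 was 7.35 times its value for Acly, 2.97 times for Scd1 and 2.44 times for Acaca. For Acss2 and Elovl6 the same ratio was 1.87 and 1.81, and it was 1.31 for Scd2, 1.12 for Fasn and 1.00 for Srebf1. Its value was under 0.5 times that mean for 3 of the 8 genes by library totals, where it was so for 39.4% of all IDs, and for 2 of the 8 by TMM, where it was so for 30.6%. By TMM the library stood 1.35 times above that mean for Srebf1 and 1.21 times above it for Fasn, and the mean was 1.80 times its value for Acaca. In RNA from whole cultures, fewer cells of a type and less RNA per cell cannot be told apart.

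**Figure D3:**
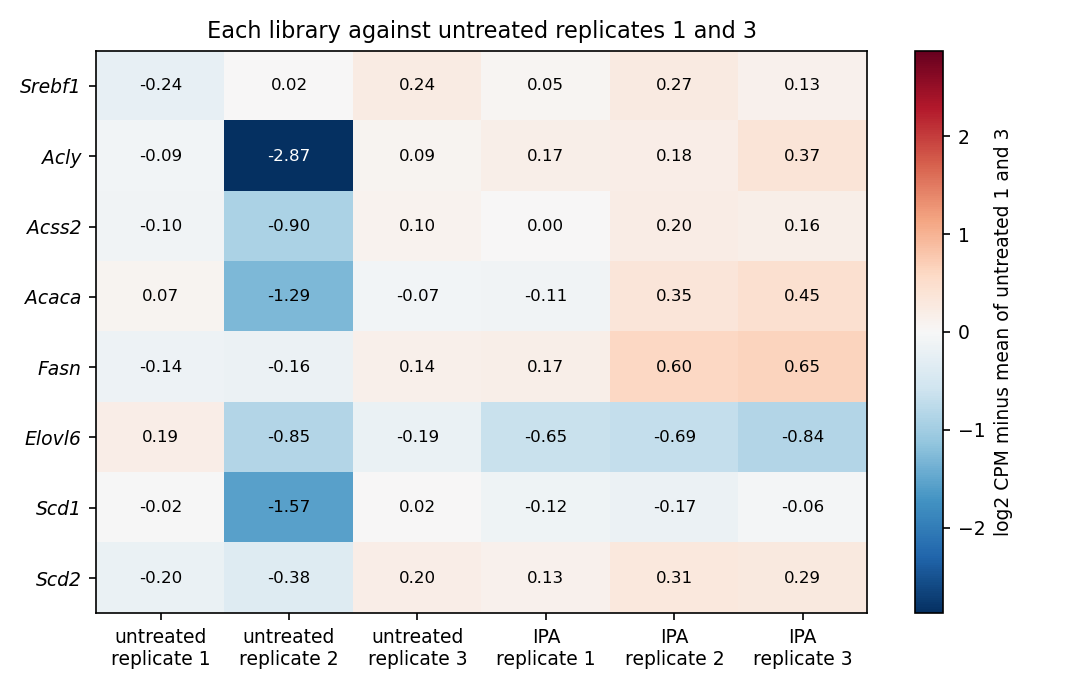
Log2 CPM of each gene (rows) in each library (columns) minus the mean of untreated replicates 1 and 3, which are therefore mirror images around 0; blue is lower and red is higher. Untreated replicate 2 runs from -2.87 for Acly to 0.02 for Srebf1. The 3 IPA libraries run from -0.65 to -0.84 for Elovl6 and from 0.17 to 0.65 for Fasn.

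Ratios of 2 genes within a library need no scaling between libraries. The ratio of Scd1 to Scd2 counts compares the desaturase genes and was 13.4%, 5.17% and 10.4% in untreated replicates 1, 2 and 3, and 9.93%, 8.46% and 9.26% in the IPA libraries. The IPA values lay inside the untreated range. The difference in mean log2 ratio was 0.04 (two-sided exact permutation test, p = 1, Benjamini-Hochberg adjusted over 3 ratios p = 1). Without untreated replicate 2 it was -0.36, with all 3 IPA libraries below both untreated ones (two-sided exact permutation p = 0.2, the smallest that 2 against 3 libraries can give).

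The ratio of Acss2 to Acly counts compares the acetate and citrate branches. It was 51.1%, 203% and 52.4% in the untreated libraries and 46.0%, 52.4% and 44.6% in the IPA libraries. Untreated replicate 2 was the one library in which Acss2 counts exceeded Acly counts. The difference in mean log2 ratio was -0.78 over all 6 libraries and -0.12 without untreated replicate 2 (two-sided exact permutation p = 0.3 and 0.6, adjusted over 3 ratios p = 0.45 for the first). The 3 ratios of the adjustment include that of Elovl6 to Fasn, which was not planned.

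The ratio of Elovl6 to Fasn counts, chosen after the values of both genes had been seen, was 39.1%, 19.3% and 24.8% in the untreated libraries and 17.7%, 12.8% and 11.1% in the IPA libraries. Every IPA library was below every untreated library, untreated replicate 2 included. The difference in mean log2 ratio was -0.96, or 1.95 times lower with IPA. Without untreated replicate 2 the ratio was 2.28 times lower. Since the pair was picked for its values, this separation is a description, and no p-value is given for it. Counts are not divided by transcript length here, so these ratios compare libraries and not the abundance of 1 gene with that of the other.

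**Figure D4:**
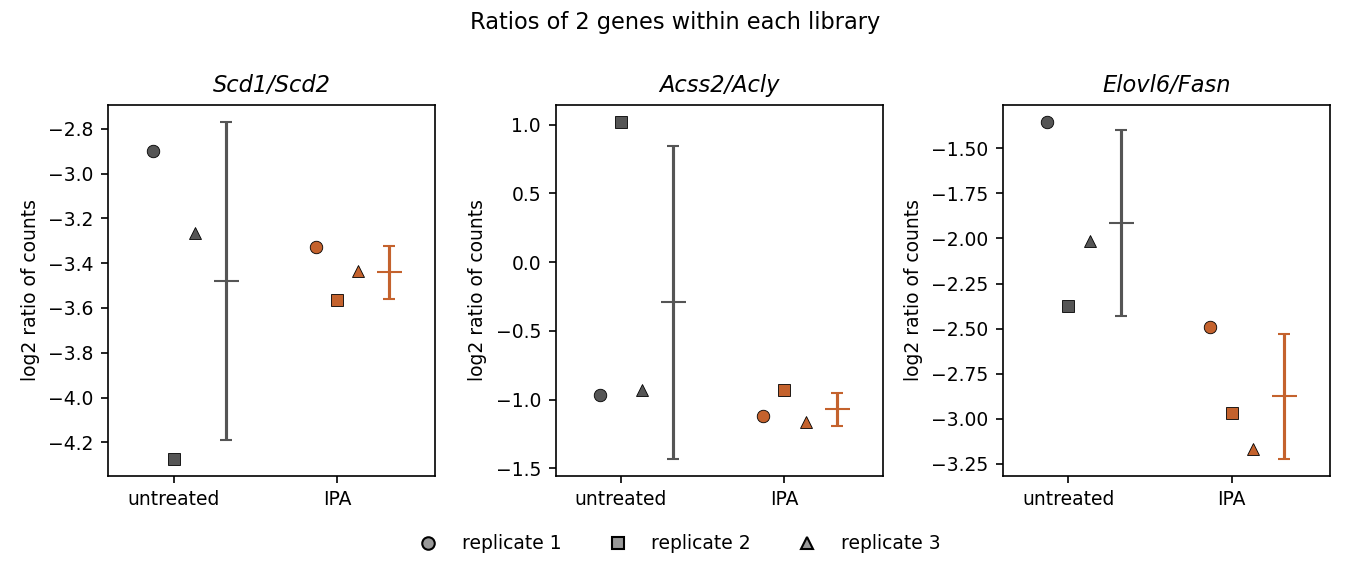
Log2 ratio of the counts of 2 genes (vertical axes, which do not start at 0) in each library, with the mean and SD of each group beside it (n = 3). Untreated replicate 2, the grey square, departs from the other untreated libraries for Scd1/Scd2 and Acss2/Acly, and for Elovl6/Fasn all IPA libraries (-2.49 to -3.17) lie below all untreated ones (-1.35 to -2.37).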

How the data were processed

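RNA-seq counts of 3 untreated and 3 IPA-treated 4T1 samples were analysed. The authors deposited raw read counts per Ensembl gene ID, per the file headers. Builds GRCm38 and mm10 are named in the submitters' processing notes, and tools, annotation release and strand handling were not given in the sources used here. Columns were matched to samples by the letters and number of the sample titles. The 8 names and IDs come from the definition of the gene set. The reference table, of 49997 genes (GRCm38.p6), has 0 rows with an Ensembl ID, so 8 wider pathway lists and 6 cell-marker lists set by symbol were not analysed here, and the named genes are the 8 members. Members and lists were chosen with earlier results of these data known.

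The main test was edgeR 4.0.16 (quasi-likelihood, robust, TMM, filterByExpr) in R 4.3.3 on all 6 libraries. The standard error is the log2 fold change over the square root of F. For correlations, 2 was the prior count of log2 CPM. Ratios used counts plus 0.5. A floor of 3 counts ranged from 0.0509 to 0.88 CPM by library. The chi-square per degree of freedom between replicates was 6.56 or more, so none agreed within sampling noise. Alternatives were DESeq2 1.42.0, limma 3.58.1 (voom), other scaling factors and filters, the replicate block, and leaving out libraries.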

Additional observations from a re-analysis of the deposited data

How the results depend on the processing

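Over 26 alternatives, Elovl6 stayed below 0 in 26 (log2 fold change -1.04 to -0.45, adjusted p 0.00043 to 0.998) and was called in 12, of which 11 left out untreated replicate 2 and the other down-weighted it. Fasn stayed above 0 in 26 (0.20 to 0.55, adjusted p 0.0347 to 0.998) and was called in 2. No other gene was called in any. The number of genes called lower was 0 over all 6 libraries and 1 with limma-voom with sample quality weights. With untreated replicate 2 left out as well, it was 1 with DESeq2, limma-voom, limma-voom with sample quality weights, RLE factors, upper-quartile factors and library totals, and 1 with IPA replicate 1, untreated replicate 3, IPA replicate 2 or IPA replicate 3 also left out; these 10 settings called 0.642% to 4.84% of all IDs lower. The number called higher was 1 without untreated replicate 2 and IPA replicate 1 together (2.88% of all IDs). It was also 1 with sample quality weights without untreated replicate 2 (2.71%). In every other setting it was 0, beside 0% (main test) to 3.71% (DESeq2 without untreated replicate 2) of all IDs. Leaving out 1 library at a time gave 0 higher, and 1 lower only without untreated replicate 2. Beyond the removal or down-weighting of that library, the cause was not tested.

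Of the 8 genes, 4 changed sign, none of them past the threshold in any setting. Srebf1, at -0.11 over all 6 libraries, was 0.12 with sample quality weights, 0.13 with library totals and 0.031 without untreated replicate 2. With that library left out it was also 0.054 with DESeq2, 0.044 with limma-voom, 0.090 with sample quality weights, 0.056 with RLE factors, 0.020 with upper-quartile factors and 0.13 with library totals, and 0.12, 0.28, 0.0018 and 0.066 with IPA replicate 1, untreated replicate 3, IPA replicate 2 and IPA replicate 3 also left out. Scd1, at 0.09, was -0.20 with sample quality weights and -0.22 without untreated replicate 2. With that library left out it was -0.20 with DESeq2, -0.22 with limma-voom, -0.24 with sample quality weights, -0.20 with RLE factors, -0.23 with upper-quartile factors and -0.11 with library totals, and -0.17, -0.23, -0.21, -0.16 and -0.23 with IPA replicate 1, untreated replicate 1, untreated replicate 3, IPA replicate 2 and IPA replicate 3 also left out. Without both untreated replicates 1 and 2, Scd2 was -0.047 and Acss2 -0.062. With 1 library left out at a time, Srebf1 ran from -0.21 to 0.031 and Scd1 from -0.22 to 0.29. Library totals moved the median of all tested IDs from -0.08 to 0.13 over all 6 libraries, and the 8 genes with it; relative to that median Elovl6 was lower by about the same amount on both scales (-0.62 and -0.63).

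The difference in the Scd1 to Scd2 ratio ran from -0.36 to 0.33 with 1 library left out, and was -0.36 without untreated replicate 2 and -0.02 without IPA replicate 1. That of Acss2 to Acly ran from -1.11 to -0.12, and that of Elovl6 to Fasn from -1.19 to -0.68. With the replicate block 0 of the 8 genes were called, where 0% of all IDs were called. The ratio differences stayed at 0.04, -0.78 and -0.96 by construction, since the mean of paired differences equals the difference of group means. Same-numbered samples correlated in their deviations at -0.0771, 0.0183 and 0.161, and 3 of 6 correlated best with their own number, so the numbers were not taken to pair the samples. Leaving out untreated replicate 2 was planned, but with earlier results of these data known, in which it stood apart. The Elovl6 to Fasn ratio was chosen after seeing the data. So was leaving out untreated replicate 2 together with a library other than IPA replicate 1, or with quality weights. A single untreated library in such a fit is assumed to vary like the others.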
